A study of Drosophila melanogaster with 6 samples.

Results

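Ribosomal protein genes encode the protein part of the cytoplasmic ribosome, and 34 of them were measured in whole adult flies of the Drosophila melanogaster strains Canton-S and D18. The members are genes whose current symbol starts with RpL, RpS or RpLP followed by a number and, for some, a letter of a subfamily or copy, together with sta. Of 86 such genes in the RefSeq annotation of Release 6, 34 had a probe set that named them alone, and the other 52, sta among them, were not analysed here because no probe set is paired with them in the annotation used. The 34 genes, 19 of the large subunit with its stalk and 15 of the small subunit, stand among 11982 genes named in this way. They rest on 40 probe sets, and a gene with several was represented by the one with the highest mean.

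Both strains are wild type laboratory strains, kept at 25 °C on cornmeal-molasses medium with antibiotic. RNA of 3-day-old adults, 15 flies to a sample, was hybridized to GeneChip Drosophila Genome 2.0 arrays, with 3 biological repeats of Canton-S and 3 of D18. Values are RMA signals on the log2 scale, that is, background-corrected and normalized summaries of all probes of a probe set. The labels give no sex, and the methods of the paper give both sexes.

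The kind of array has to be named first, because it separated the members more than strain did. On Canton-S replicate 3 and D18 replicate 2 the medians of 24 testis genes were 10.35 and 10.46, and of 15 accessory gland genes 11.86 and 11.43, while on the other 4 arrays these medians lay between 2.21 and 2.93. The medians of 15 ovary genes were 3.66 and 3.45 on these arrays but 9.75 to 10.77 elsewhere, and those of 14 yolk and eggshell genes 4.22 and 3.73 against 11.53 to 13.00. The pair is called male-type and the other 4 arrays female-type below. These names come from the marker genes and not from a label, and differences between the kinds of array are therefore described and not tested.

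A ribosome is built from a small subunit, which reads the messenger RNA, and a large subunit, which joins the amino acids. The stalk of the large subunit, formed by RpLP0, RpLP1 and RpLP2, recruits the elongation factors. Ribosomal protein genes are transcribed at high and coordinated levels in growing cells, and the nurse cells of the ovary load the egg with ribosomes. In Drosophila, loss of 1 copy of many of these genes gives the Minute phenotype of slow growth and short bristles. Several of the proteins are encoded by 2 genes, of which 1 is used throughout the body and the other mainly in the germ line.

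Most members were among the brightest probe sets of the arrays. Of the 34, 28 had a mean signal above that of 99% of all probe sets. RpL41, which encodes a very short peptide of the large subunit, was the brightest with a mean of 13.45, followed by the stalk protein RpLP1 with 13.05, RpL15 with 12.96, RpS18 with 12.94 and RpS29 with 12.92. RpL34a and RpS5b, at 10.79 and 11.01, were the dimmest of the 30 members with a mean over 10. The other 4 members, RpL10Aa, RpS10a, RpS19b and RpS28a, had means between 4.50 and 5.52. Probe sets differ in their binding, so these means rank signals and not amounts of RNA.

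The abundant members were lower on both male-type arrays, by a small amount and nearly all together. All 30 members with a mean over 10 had a lower mean on the male-type than on the female-type arrays, except that RpL10Ab had a difference of 0.01 with quantile normalization. Without RpS5b, which is described with the paralogues, the difference ran from -0.19 for RpL10Ab and RpL39 to -1.02 for RpL34a, with a median of -0.38 over 29 genes. In 24 of these 29 both male-type arrays lay below all 4 female-type arrays, and with RpS5b this holds for 25 of the 34 members (73.5%). As deposited, a lower mean on the male-type arrays was found in 12995 of all 18769 probe sets that were tested. It was also found in 84 of 113 probe sets with a mean over 12 that name no member. Of the 18769 probe sets, 47.3% lay below without overlap in the same way, and the median difference was -0.33. The size of the shift of the members is thus close to that of all probe sets, and the share without overlap is higher. In pools of whole flies, fewer cells of a type and less RNA per cell cannot be told apart.

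**Figure D1:**
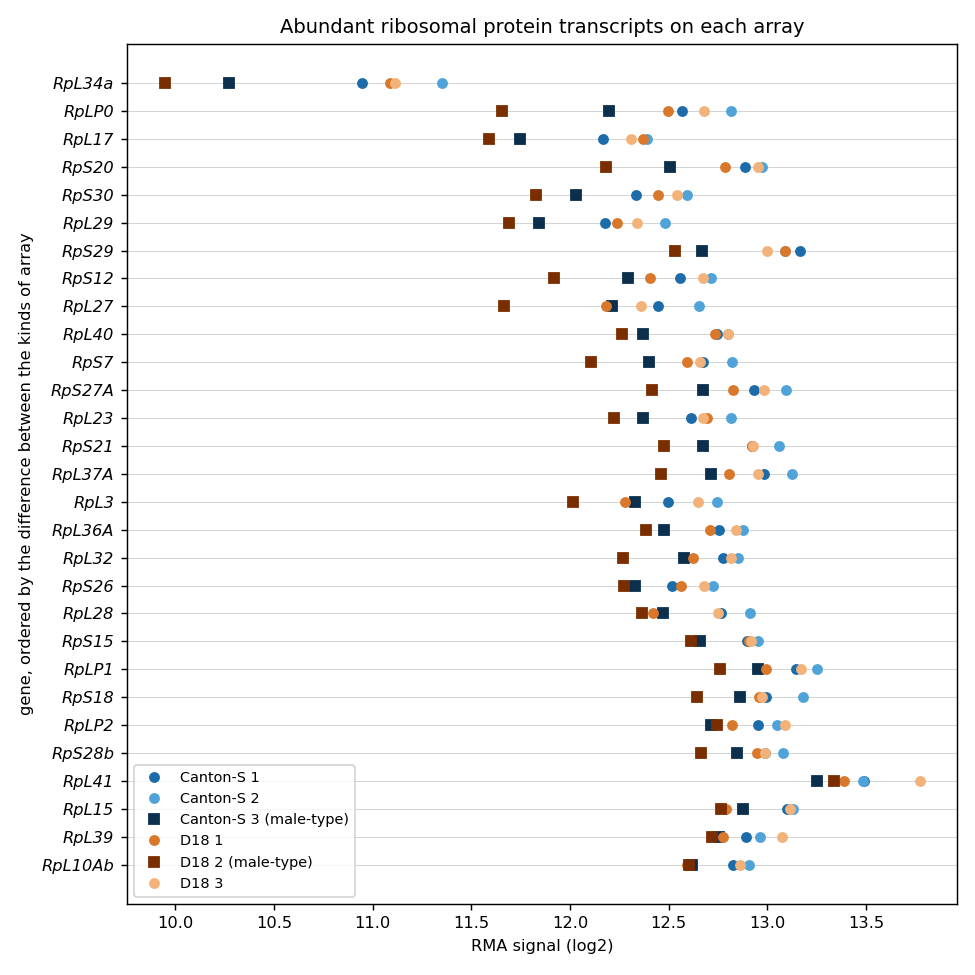
RMA signal (log2, x axis) of the 29 ribosomal protein genes with a mean over 10 other than RpS5b, 1 line per gene and 1 point per array. Squares are the male-type arrays, circles the female-type arrays; the squares lie left of all circles in 24 genes, and RpL34a has the widest gap.

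RpL34a, of the large subunit, had 10.94 and 11.35 on the female-type arrays of Canton-S and 11.09 and 11.11 on those of D18. On the male-type arrays it had 10.27 in Canton-S and 9.95 in D18. The kinds of array did not overlap, and the means differed 2.02-fold. RpLP0, the base of the stalk, had 12.57, 12.82, 12.50 and 12.68 on the female-type arrays and 12.20 and 11.65 on the male-type arrays, a difference of -0.71. Without D18 replicate 2 it was -0.44. The differences of its partners in the stalk were -0.28 for RpLP1 and -0.25 for RpLP2. RpL17, a protein near the exit of the peptide tunnel, had 12.17, 12.39, 12.37 and 12.31 against 11.75 and 11.59, a difference of -0.64. RpS20 and RpS30 of the small subunit differed by -0.56 and -0.55, and RpL29 by -0.54.

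RpL32, also known as rp49, is widely used as a reference transcript for qRT-PCR in flies. The study used it so, together with Ras64B and GAPDH. It had 12.78, 12.85 and 12.58 on the Canton-S arrays and 12.63, 12.27 and 12.82 on the D18 arrays, in the order of the replicates. Its lowest values were those of the male-type arrays, 12.58 and 12.27, and the difference of -0.34 is 1.27-fold. With quantile normalization its difference was -0.16 and the arrays overlapped. RpS27A and RpL40, which are made as fusions with ubiquitin, differed by -0.42 and -0.46. RpL40 varied little among the female-type arrays, with 12.75, 12.80, 12.73 and 12.80, and had 12.37 and 12.26 on the male-type arrays.

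The arrays kept much the same order from gene to gene. Of the 30 members with a mean over 10, 27 were lowest on D18 replicate 2, 23 were second lowest on Canton-S replicate 3 and 24 were highest on Canton-S replicate 2. The median over these members was 12.77, 12.89 and 12.49 on the Canton-S arrays and 12.70, 12.32 and 12.83 on the D18 arrays, in the order of the replicates. For 113 probe sets with a mean over 12 that name no member, the medians were 12.69, 12.73 and 12.48 for Canton-S. For D18 they were 12.54, 12.35 and 12.71. The same arrays were thus highest and lowest there, and the counts by gene were not made outside the members. Over the members with a mean over 10, the male-type array was lower within each strain, with a median difference of -0.34 in Canton-S and -0.45 in D18.

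As deposited, the arrays of 5 abundant members overlapped, RpL3, RpL10Ab, RpL15, RpL27 and RpL28. In each of them D18 replicate 1, a female-type array, lay below Canton-S replicate 3. RpL27 for example had 12.18 on D18 replicate 1 and 12.21 on Canton-S replicate 3, with 11.66 on D18 replicate 2. Of the abundant members other than RpS5b, the male-type arrays lay below in 11 of 11 genes of the small subunit and in 13 of 18 of the large subunit, with median differences of -0.42 and -0.37, against 47.3% of all probe sets. These counts depended on the scaling, with 10 of 11 and 11 of 18 after quantile normalization, where RpL32, RpL39, RpLP2 and RpS18 also overlapped and RpL27 did not. After a shift of the arrays to 1 median they were 11 of 11 and 18 of 18. The difference between the subunits was not tested.

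Other probe sets of high signal were divided. Of 113 with a mean over 12 that name no member, 61 (54.0%) lay below on both male-type arrays, against 47.3% of all probe sets. Their median difference was -0.32. Of the 48 probe sets among them that name 1 gene, 11 lay below, with a median of -0.05. Of the other 65, which name no gene or several here, 50 lay below, with a median of -0.37. These 65 may hold probe sets of the 52 ribosomal protein genes that no probe set names here, which was not checked. Members lie near the upper end of the signal, where the brightest probe sets of the arrays had 13.39 to 14.07, and the part of this end of the scale in the small differences was not tested.

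Paralogous copies of the same ribosomal protein differed in opposite directions between the kinds of array in RpS28 and RpL37, and as deposited also in RpL10A, where the small difference of RpL10Ab turned to 0.01 with quantile normalization. Fold changes of the dim copies depend on the lower end of the signal, as the lower quartile of the arrays was 2.96 to 3.09, and the deposited values hold no detection call.

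RpL10Aa and RpL10Ab encode copies of a protein of the L1 stalk of the large subunit. RpL10Ab had 12.83, 12.91, 12.59 and 12.86 on the female-type arrays and 12.62 and 12.60 on the male-type arrays. RpL10Aa had 3.34, 3.59, 3.38 and 3.58 on the female-type arrays, close to the lower quartile, and 9.86 in Canton-S and 8.89 in D18 on the male-type arrays. The groups were far apart, and the means of RpL10Aa differed by 5.90, or 59.9-fold, against -0.19 for RpL10Ab, whose arrays overlapped. Among the members RpL10Aa had the widest difference between the kinds of array.

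RpS28b and RpS28a are copies of a small protein of the small subunit. RpS28b had 12.99, 13.08, 12.95 and 12.99 against 12.85 and 12.66, a difference of -0.25. RpS28a was dim on every array, with 4.07, 4.27, 4.38 and 4.20 on the female-type arrays and 4.85 and 5.20 on the male-type arrays, and its difference of 0.79 had the opposite sign. With quantile normalization and with a shift of the arrays to 1 median its arrays overlapped, and the difference was 0.22 and 0.33. The gene RpS28-like, which the symbol rule leaves out, had 2.56 to 2.78 on the female-type arrays and 7.20 and 7.49 on the male-type arrays.

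RpL37-1 and RpL37-2, formerly RpL37a and RpL37b, are also outside the rule by their present symbols and showed the same split. RpL37-1 had 12.22 to 12.60 on the female-type arrays and 11.96 and 11.72 on the male-type arrays. RpL37-2 had 4.47, 4.50, 4.83 and 4.98 on the female-type arrays and 7.80 and 7.54 on the male-type arrays. The differences were -0.53 and 2.97.

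**Figure D2:**
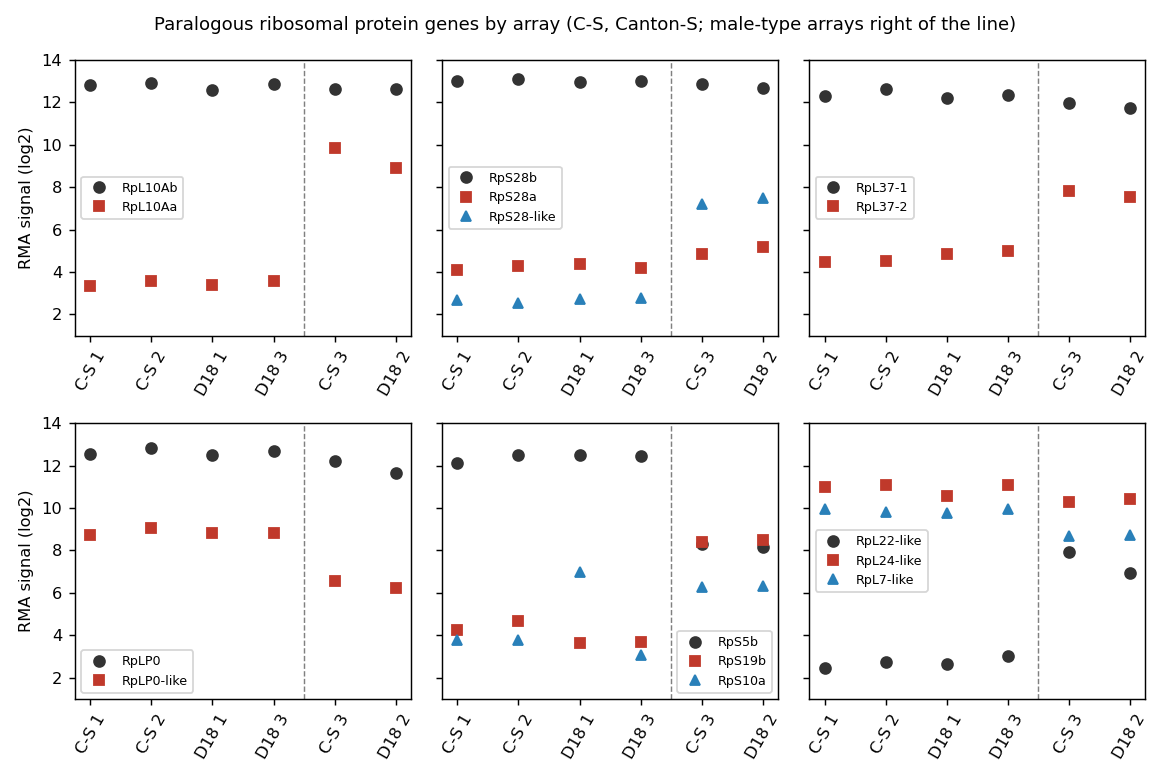
RMA signal (log2, y axis) on each array for copies of ribosomal protein genes and for genes with the ending -like. The 4 female-type arrays are left of the dashed line and the 2 male-type arrays right of it. RpL10Aa rises from at most 3.59 to 8.89 and 9.86 across the line, whereas RpS5b falls from at least 12.12 to 8.29 and 8.18.

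RpS5b, RpS19b and RpS10a are copies known from the germ line, and no value is given here for their partners RpS5a, RpS19a and RpS10b. RpS5b, which is needed in the ovary, had 12.12 and 12.50 on the female-type arrays of Canton-S and 12.51 and 12.44 on those of D18. On the male-type arrays it had 8.29 and 8.18, a 17.8-fold lower mean, and the kinds of array were far apart. No other member fell as far. RpS19b had 4.23, 4.66, 3.64 and 3.68 on the female-type arrays and 8.39 and 8.52 on the male-type arrays, a 21.1-fold difference in the opposite direction.

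The kinds of array overlapped in RpS10a, where D18 replicate 1 was the only female-type array not below both male-type arrays. The gene had a difference of 1.89 between the kinds of array, and of 2.75 without D18 replicate 1. It had 3.80 and 3.78 on the female-type arrays of Canton-S and 6.28 on the male-type array. In D18 it had 6.99 on replicate 1, 6.31 on replicate 2 and 3.06 on replicate 3, so the highest and the lowest values of the gene came from female-type arrays of the same strain.  On the median of all 34 members those arrays had 12.61 and 12.78.

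Further genes with ribosomal protein names were fixed as a list of 5 genes with the ending -like. Of these, 3 were lower and 2 higher on both male-type arrays, against 47.3% and 17.4% of all probe sets. RpL22-like, a copy of RpL22 known from the male germ line, had 2.48, 2.74, 2.66 and 3.00 on the female-type arrays and 7.95 and 6.92 on the male-type arrays. RpLP0-like, related to a factor that assembles the large subunit in yeast, had 8.72, 9.06, 8.81 and 8.82 against 6.57 and 6.22, a wider difference (-2.45) than that of RpLP0 (-0.71). RpL7-like and RpL24-like differed by -1.17 and -0.58.

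Across the 34 members, the male-type arrays lay above all female-type arrays in 3, RpL10Aa, RpS19b and, only as deposited, RpS28a (8.82%, against 17.4% of all probe sets). These 3 are on chromosome arm 3R, as are RpS10a and RpS5b. Of the 13 members on 3R, 7 lay below and 3 above, where 47.3% of all probe sets lay below. On 2L, 2R, 3L and X the counts below were 7 of 7, 7 of 7, 2 of 5 and 2 of 2 as deposited. They depended on the scaling, with 4 of 7 on 2R after quantile normalization and 5 of 5 on 3L after the shift to 1 median.

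Other probe sets of 4 members gave weaker or different signals. RpS29 has 1 other bright probe set, which differed by -0.22 against -0.49 for the brightest, and a dim one with 1.95 to 3.04 on the female-type arrays and 5.02 and 5.31 on the male-type arrays. For RpS30 a second probe set had 7.29 to 8.05 against 5.33 and 5.12, a difference of -2.45 where the brightest had -0.55. RpL3 has 2 dimmer probe sets, and the brighter of them had 5.84 on D18 replicate 1 but 7.84 on D18 replicate 3. The dim second probe set of RpS7 differed by -0.73.

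Most genes that make ribosomes had wider differences between the kinds of array than most ribosomal protein genes, which was not tested. All 21 measured genes of a ribosome assembly list lay below on both male-type arrays, against 47.3% of all probe sets. The median difference of the list was -2.21, against -0.33 over all probe sets, and its range was from -3.73 to -0.37. Nop60B, the pseudouridine synthase of the nucleolus, had 10.51, 11.24, 10.93 and 10.95 on the female-type arrays and 7.47 and 6.89 on the male-type arrays, which is 13.2-fold. Fib, the fibrillarin that methylates ribosomal RNA, differed by -2.58. All 8 genes of RNA polymerase I and its factors, which transcribe ribosomal RNA, lay below with a median of -2.04, and Polr1F differed most with -2.94.

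The translation machinery outside the ribosome lay between these. Of 26 initiation factors 20 lay below and 2 above, with a median of -0.56. Over all probe sets, 47.3% lay below and 17.4% above. The gene eIF3d2, a second copy of a subunit of the initiation factor that binds the small subunit, stood out with 3.41 to 3.59 on the female-type arrays and 9.08 and 9.53 on the male-type arrays. Of 4 elongation factors 3 lay below, and eEF1alpha2 lay above with a difference of 1.02. Of 7 ribosome-bound factors 6 lay below, Rack1 with -0.59 among them. Of 7 genes of growth control upstream of ribosomal protein synthesis, 4 lay below (57.1%), near the share of all probe sets. Among them S6k had 0.04 and raptor -1.50.

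Mitochondrial ribosomal proteins, a separate set of nuclear genes, lay below in 66 of 71 measured genes (93%) and above in none, with a median difference of -0.92. The range was from -1.59 for mRpL1 to -0.15 for mRpL28. Over all probe sets, 47.3% lay below and 17.4% above, with a median difference of -0.33. The median differences of the sex markers between the same kinds of array were -6.48 for ovary, -7.61 for yolk and eggshell, 7.62 for testis and 9.16 for accessory gland. For 9 muscle and 9 neuron markers they were 0.94 and 1.15, with 1 and 8 genes above without overlap. The muscle median was -0.08 within Canton-S and 1.90 within D18, and the neuron median 0.62 and 1.88. For 10 midgut and 7 fat body markers the medians were 0.08 and -0.22. The part of all these markers in the differences of the members was not tested.

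**Figure D3:**
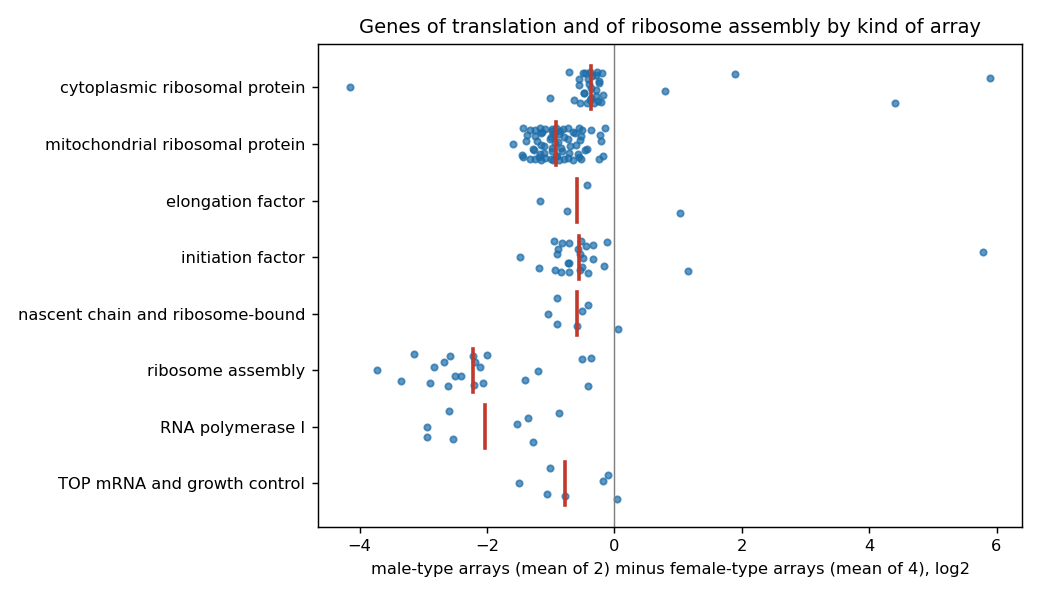
Difference between the mean of the 2 male-type arrays and the mean of the 4 female-type arrays (log2, x axis) for each measured gene of 8 lists, with the median of a list as a red bar. Most ribosomal protein genes lie close to the median of -0.37. Most ribosome assembly genes lie lower, with a median of -2.21 and a range from -3.73 to -0.37.

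No member differed between Canton-S and D18 by the test. In limma, 0 of 34 members reached an adjusted p under 0.05, against 0.0373% of all probe sets, and 0 were more than 2-fold apart at an unadjusted p under 0.01, the thresholds in the methods, against 1.27%. No member had an unadjusted p under 0.05 in limma either, against 789 of all 18769 probe sets. In a linear model without moderation it was again 0 members, against 881 probe sets. Both are small shares of all probe sets, so 0 of 34 is near them. The differences of the 29 abundant members other than RpS5b ran from -0.09 to 0.37 with standard errors of 0.20 to 0.45, so changes of that size could not be shown with 3 arrays a strain.

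RpL27 had the lowest p of the members. It had 12.45, 12.65 and 12.21 in Canton-S and 12.18, 11.66 and 12.36 in D18, and means of 12.44 ± 0.22 and 12.07 ± 0.36 (SD, n = 3 arrays). The strains overlapped, and the difference of 0.37 with a standard error of 0.27 is 1.29-fold (adjusted p = 1 from limma, unadjusted 0.22). RpLP0 had the next largest difference among the abundant members, with 12.53 ± 0.31 and 12.28 ± 0.55 (SD, n = 3), a difference of 0.25. RpL32 differed by 0.16 with a standard error of 0.23.

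The sign of these differences was mostly toward Canton-S, and it depended on the scaling and on 1 array. As deposited, 30 of 34 members were higher in Canton-S, with a median of 0.11. Over all 18769 probe sets, 7929 were higher in Canton-S, with a median of -0.05. Probe sets of high signal leaned the same way as the members. Of the 113 with a mean over 12 that name no member, 91 were higher in Canton-S, with a median of 0.11. Some of them may be unnamed ribosomal protein probe sets. Of the 48 among them that name 1 gene, 36 were higher in Canton-S, with a median of 0.16. With quantile normalization 23 of 34 members were higher in Canton-S. After a shift of all arrays to 1 median, which moved the median of all probe sets from -0.05 to -0.22, 10 were higher in Canton-S and the median of the members was -0.06. Without D18 replicate 2, the lowest array for most members, 14 were higher in Canton-S and the median was -0.05. Without Canton-S replicate 2 it was 0.04, and without Canton-S replicate 3 it was 0.22. The median strain difference of 10 midgut markers was 0.51, and its part in these values was not tested.

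In 0 members did all Canton-S arrays lie above all D18 arrays, and in 0 members below, against 5.62% and 2.39% of all probe sets. Each strain holds 1 male-type array, and this widens the spread within both strains. It was widest for RpL10Aa, with 5.60 ± 3.69 in Canton-S and 5.28 ± 3.13 in D18, and for RpS5b and RpS19b. When the kind of array was taken as a block, RpL27 had an unadjusted p of 0.053 and an adjusted p = 0.43 from limma, and again 0 members passed.

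Within the 4 female-type arrays, both Canton-S arrays lay above both D18 arrays in 6 members and below in none, against 19.0% and 26.8% of all probe sets. The 6 are RpL27, RpL28, RpL37A, RpS7, RpS18 and RpS19b, and 6 of 34 is near the share of all probe sets. RpS19b had 4.23 and 4.66 in Canton-S and 3.64 and 3.68 in D18, a difference of 0.79. In a fit on these 4 arrays it had an unadjusted p of 0.016 and an adjusted p = 0.34 from limma. On the male-type arrays the difference of RpS19b was -0.12. For the median over the members, the strain difference was 0.06 on the female-type arrays and 0.15 on the male-type arrays, 1 array a strain.

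**Figure D4:**
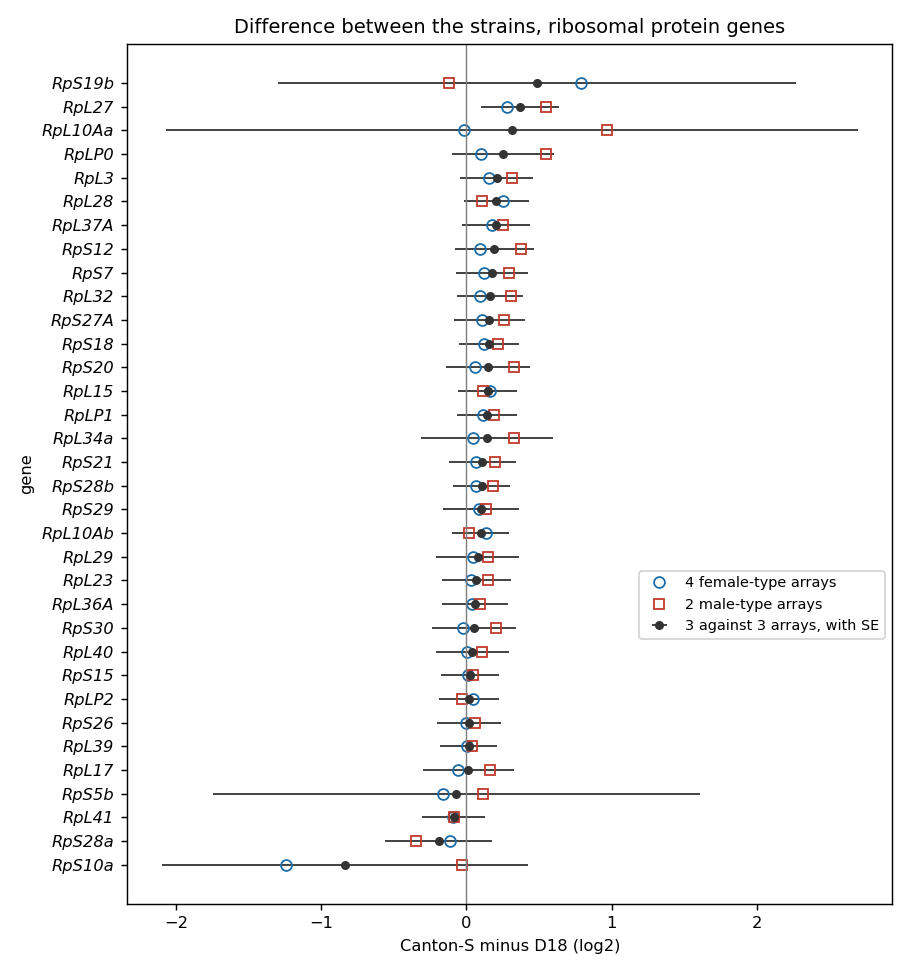
Canton-S minus D18 (log2, x axis) for the 34 members, as the mean of 3 against 3 arrays with its standard error from limma (filled points) and separately on the 4 female-type arrays and the 2 male-type arrays (open symbols). Filled points of abundant members other than RpL41 and RpS5b lie between 0 and 0.37, and 3 of the 4 dim members and RpS5b have the widest standard errors.

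Also with the replicate number as a block, 0 members passed either threshold, and the lowest unadjusted p of a member was 0.38. None of the lists of the translation machinery held a gene past either threshold. Of the dim copies, RpS10a had a strain difference of -0.84 with a standard error of 1.26 that rests on D18 replicate 1. RpS28a had one of -0.19 with a standard error of 0.37.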

How the data were processed

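The authors processed the scans of 6 arrays in the Transcriptome Analysis Console with the RMA algorithm at default parameters. The deposited log2 values were used as they are. Of 18952 probe sets, 183 controls were left out. Of the 18769 tested, 13647 name 1 gene in the array annotation with current symbols, 402 several and 4720 none. The strains were compared in limma (version 3.58.1, with R 4.3.3), strain being the only factor, and Benjamini-Hochberg values run over all 18769. The male-type arrays were compared with the female-type arrays by means and by overlap, without a test. Members and lists were chosen with earlier results of these data known. Genes were named by a rule (paralogues, widest differences by strain and by kind of array, brightest and dimmest members, RpL32 and the stalk); the overlapping members, those with several probe sets and single genes of the other lists were named after their values were seen. RNA of both strains was extracted together in each repeat, but deviations from the strain means correlated between same-numbered arrays at 0.78, -0.93 and -0.86, so the numbers were not taken as pairs in the main fit. The alternatives were a replicate block, other normalizations, filters, variance models and probe set choices, a block for the kind of array, and arrays left out. The fit was tested on simulated data. Precision is limited by having 6 arrays, and p-values measure the spread between them. No sequences were printed. Figures were made in Python 3.11.15 with pandas 2.3.3 and matplotlib 3.10.9.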

Additional observations from a re-analysis of the deposited data

How the results depend on the processing

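The count of 0 members past either threshold between the strains held under every alternative that was run. The strain median of the members kept within the spread between arrays. The counts over all probe sets moved more. At an adjusted p under 0.05 in limma, 7 probe sets passed, against 0 with the replicate block (with 373 at an unadjusted p under 0.05), 95 with a block for the kind of array, 1 after a shift to a common median, 2 with an intensity trend, 2 with quantile normalization, 3 without moderation and 11 without the dimmest 40%. At the thresholds in the methods 239 passed, against 92 with the replicate block, 447 with a block for the kind of array, 121 after the shift and 157 without moderation. With arrays left out these counts ran from 0 to 58 and from 130 to 514, the highest without both male-type arrays.

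The median difference of the members between the kinds of array was -0.37 as deposited, -0.21 with quantile normalization and -0.83 after the shift to a common median, where all probe sets had -0.27 and -0.80. Members that lay below on both male-type arrays were 25, 22 with quantile normalization, 30 after the shift and 14 among the 20 with a probe set for 1 transcript, where fewer genes were tested. Leaving out an array moved the median to between -0.48 (without Canton-S replicate 3) and -0.27 (without D18 replicate 2), and the count to between 25 and 30. With the same probe sets that count cannot fall when an array is left out, so its lower end carries no information. With the mean of all its probe sets, RpS29 turned to 0.66. The strain difference of RpL41 was 0.0202 with quantile normalization. When arrays were left out, strain differences that had missed the threshold changed sign: they ran from -1.82 to 2.12 for RpL10Aa, from -0.83 to 2.10 for RpS19b, from -1.50 to 1.27 for RpS5b, from -0.418 to 0.112 for RpS28a, from -0.17 to 0.0478 for RpL41, from -0.0625 to 0.451 for RpLP0 and from -0.0175 to 0.361 for RpS12. For RpL10Aa, RpS19b and RpS5b both ends came from leaving out a male-type array. The difference between the kinds of array could not be fitted without both male-type arrays, and the replicate block and the variance models do not bear on it.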
